A study of Mus musculus with 2 samples.

Results

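The cell cycle genes described here are 42 genes taken by symbol from the 34184 genes listed in both libraries, each of which matched 1 listed gene. They were set out in an S part of 17 genes, a G2/M part of 23 genes that act in mitosis, and 2 other genes. These 2, Stmn1 and Hmgb2, are also used outside the cycle. Most S genes act at the start of and during DNA replication. The others are Ezh2 and Uhrf1 for chromatin, Neil3 for DNA repair and Fbxo5, an inhibitor of the mitotic ubiquitin ligase. The study compared mouse femur bone marrow with the marrow of ectopic bone, in 1 single-cell RNA library each. The ectopic bone was grown under the skin from an implant of BMP-2 (8 µg), a bone-inducing growth factor, on β-TCP (40 mg), a calcium phosphate carrier, and was taken 4 weeks later. In each library the hematopoietic cells were C57BL6J (WT). The CAR cells, CXCL12-abundant reticular stromal cells of the marrow, came from Cxcl12-GFP mice after collagenase digestion and removal of hematopoietic and endothelial cells. Both fractions were mixed before loading, so a library holds cells of both mouse lines and its stromal share reflects the mixing. The number, age and sex of the animals are not given in the sources used here. With 1 library per tissue no difference could be tested. Every interval below covers counting error only, and the spread between animals is unknown.

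As background, cyclin E (Ccne1, Ccne2) and its kinase partner start S phase, when the MCM helicase (Mcm2 to Mcm7) opens DNA, the clamp Pcna holds the polymerase, and Tyms, Rrm1 and Rrm2 make deoxynucleotides. Cyclins A and B with CDK1 then drive the cell into mitosis, where Top2a untangles chromosomes, Aurora and Polo kinases and kinesin motors build the spindle, and Cdc20 and Ube2c turn on the ubiquitin ligase that ends mitosis. In marrow these genes are known to be high in dividing precursors, such as erythroblasts and large pre-B cells, and low in mature B cells and granulocytes.

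The femur library held 123009924 UMIs (unique molecular identifiers, counted transcripts) over 11148 barcodes and the ectopic library 86018367 over 7214. After filters, 9755 femur and 6425 ectopic cells remained, with medians of 8411 and 9107 UMIs. The libraries shared 26 barcodes, 21 of them among the kept cells. Cells were clustered without the 42 genes and without other cycle and histone genes, so class membership did not use them directly. Classes were named from marker lists and are called "-like". For the 10 described classes, at most 1 of a class's own markers was not above its level in all other cells of the library, or 2 for the pre-B list in ectopic bone (10 of 12 above). None of these markers was at 0 in its class. Levels are UMIs per 1000000 UMIs of the class (CPM), and ratios are ectopic over femur. A gene was taken as measured in a class where the libraries together gave it 50 UMIs or more. It was called higher or lower past 1.5-fold.

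All 42 genes were read well over the whole libraries, from 1952 femur and 1271 ectopic UMIs for Ccne1 to 272909 and 158868 for Hmgb2. The G2/M part was highest in erythroid-like cells, with 6228 CPM in femur marrow (95% Poisson interval 6152 to 6304) and 6854 CPM in ectopic bone (6750 to 6959). It was 5677 and 4775 CPM in pre-B-like cells and 4790 and 3785 CPM in pro-B-like cells. Mpo-led myeloid progenitor-like cells held 2449 and 2484 CPM, and dendritic-like cells 3226 and 1748 CPM. At the low end stood mature B-like cells, with 186 and 98.3 CPM, and CAR-like cells, with 69.5 CPM (58.2 to 82.5) and 88.4 CPM (74.8 to 103.7). Mature neutrophil-like cells, which do not divide, held 145 and 122 CPM, so the G2/M sum of CAR-like cells lay below that of a non-dividing class in each library. The S part kept erythroid-like cells first, with 5048 and 5506 CPM, and CAR-like cells lowest among the described classes, with 263 and 220 CPM. Unlike their G2/M sums, these S sums of CAR-like cells lay above those of mature neutrophil-like cells, 94.8 and 72.4 CPM. The balance of the parts also differed between classes. S UMIs per G2/M UMI were 0.811 and 0.803 in erythroid-like cells, 1.04 and 1.03 in Mpo-led cells, and 0.434 and 0.521 in a neutrophil precursor class led by Fcnb.

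**Figure D1:**
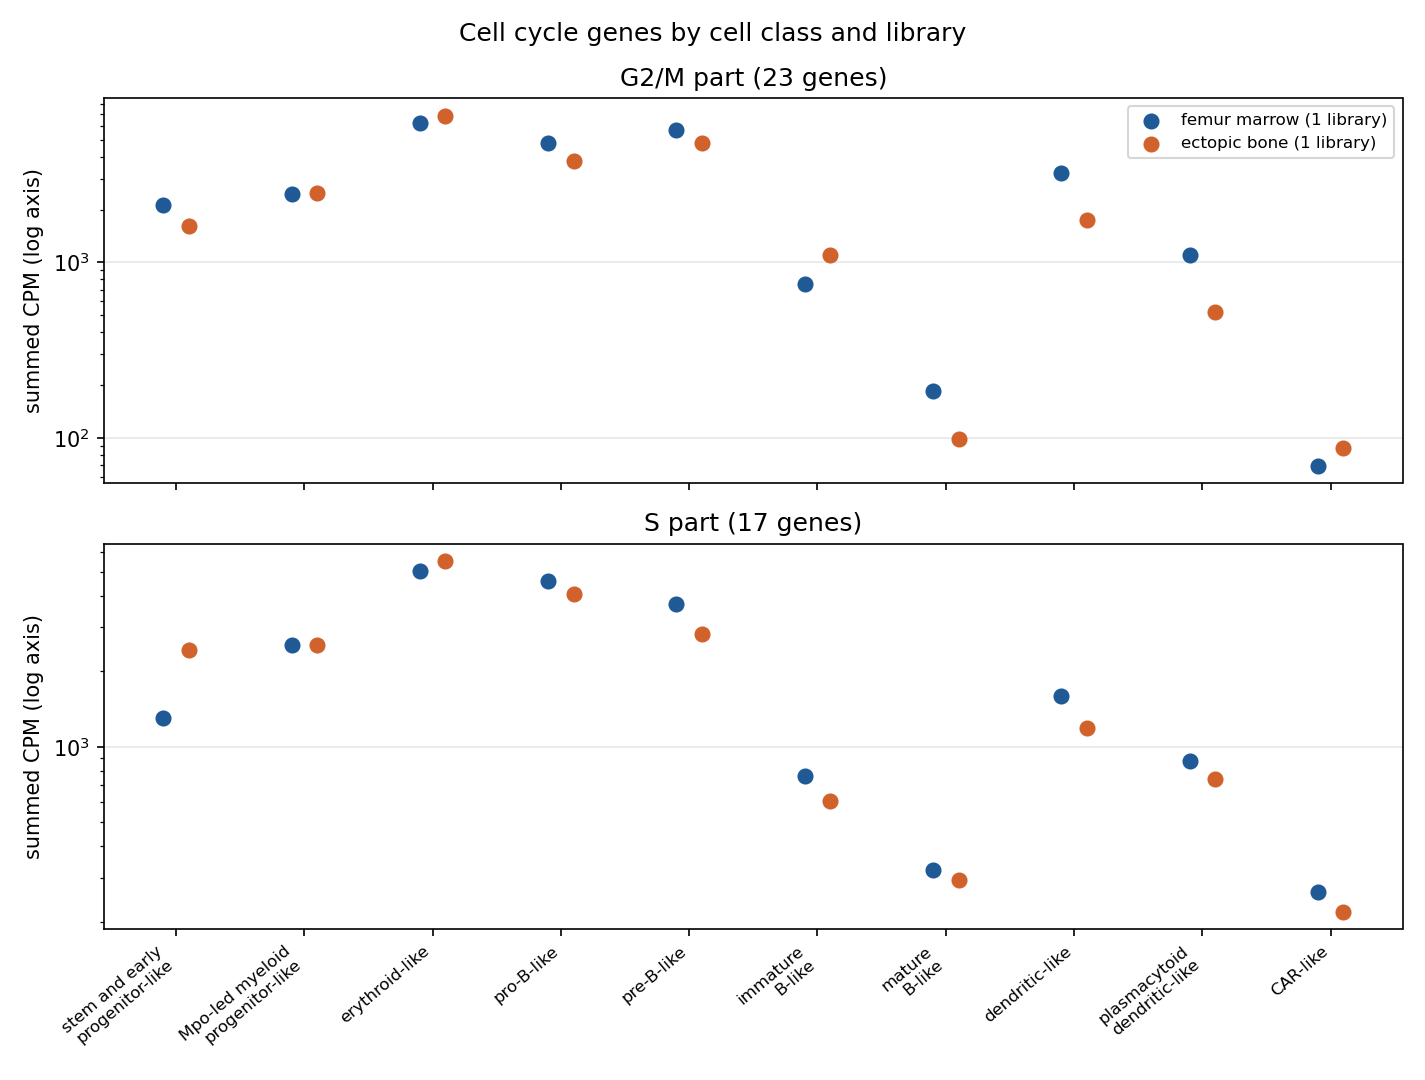
Summed CPM of the 23 G2/M genes (upper panel) and the 17 S genes (lower panel) on log axes, by cell class, with 1 point for each library. Erythroid-like cells are highest (6228 and 6854 CPM for G2/M) and CAR-like cells lowest (69.5 and 88.4 CPM); dendritic-like cells are lower in ectopic bone in both panels.

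The B lineage was lower in ectopic bone in both parts and in every gene role. Over its 2654 femur and 2197 ectopic cells the G2/M part was 3649 CPM (3624 to 3674) in femur marrow and 2099 CPM (2077 to 2120) in ectopic bone, a ratio of 0.575 (95% counting interval 0.568 to 0.582). The S part was 2878 and 1661 CPM, a ratio of 0.577 (0.569 to 0.585). All 42 genes were measured; 38 were lower past 1.5-fold and none was higher, while among all 12630 genes measured in this class 7.81% were lower and 5.06% higher. The median log2 ratio was -0.76 over the 42 genes and -0.01 over all measured genes. S UMIs per G2/M UMI were 0.789 and 0.792, so the parts differed by like amounts. Summed by role, ratios ran from 0.5004 (0.464 to 0.540) for Fbxo5, an inhibitor of the mitotic ubiquitin ligase, to 0.664 (0.640 to 0.690) for Cdc20 and Ube2c together.

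Among the S genes of the B lineage, Ccne1 was 22.1 CPM in femur marrow and 11.8 CPM in ectopic bone, a ratio of 0.533. Ccne2 was 28.5 and 16.3 CPM (0.572). The helicase subunit Mcm5 was 88.3 and 59.1 CPM (0.670), just inside the 1.5-fold limit. It was the S gene not past that limit. Pcna was 341.8 and 202.1 CPM (0.591). Tyms, thymidylate synthase, was 66.2 and 35.8 CPM (0.541). Rrm2, the regulated subunit of ribonucleotide reductase, was 167.9 and 87.0 CPM (0.518). The ratio was higher for the helicase, whose 6 subunits summed to 655.7 and 409.9 CPM (0.625, interval 0.608 to 0.643), than for Tyms, Rrm1 and Rrm2 together (0.558, interval 0.536 to 0.580).

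Among the G2/M genes, the proliferation antigen Mki67 was 444.7 and 259.0 CPM (0.582) and Top2a was 615.0 and 315.6 CPM (0.513). Ccnb1, cyclin B1, was 89.8 and 54.4 CPM (0.606). Cdc20 was 103.6 and 73.9 CPM (0.714, interval 0.666 to 0.764). Cdc20 and the kinesin Kif20b, at 65.1 and 48.2 CPM (0.741), were the least lowered of all 42. At the other end were the microtubule-binding Nusap1, at 203.7 and 100.1 CPM (0.492), and Fbxo5, at 107.9 and 54.0 CPM (0.5004). Stmn1, which takes microtubules apart, was 767.5 and 428.5 CPM (0.558). Hmgb2, a chromatin protein, was 2709 and 1599 CPM (0.590), so the 2 genes used outside the cycle were lowered like the rest.

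The stage makeup of the B lineage differed along with these levels. Pro-B-like cells were 12.7% of its femur cells (exact 95% interval 11.4% to 14.0%) and 6.28% of its ectopic cells (5.30% to 7.38%). Pre-B-like cells were 39.5% and 23.4%, and mature B-like cells were 30.3% (28.5% to 32.0%) and 50.5% (48.4% to 52.6%). Immature B-like cells were 17.5% and 19.8%. Pro-B-like and pre-B-like cells together carried most G2/M UMIs of the lineage in each library, with 37.3% and 58.8% of the femur UMIs and 33.3% and 54.9% of the ectopic UMIs. When the ectopic stage levels were weighted by the femur stage shares of UMIs, the ectopic G2/M level was 3054 CPM in place of 2099, a ratio of 0.837 in place of 0.575. For the S part the same weighting gave 2368 CPM and a ratio of 0.823 in place of 0.577. Both ratios at the femur makeup were inside 1.5-fold with these stages; they were not recomputed with stages from other clusterings, which moved the stage levels. The order of the stage levels and the makeup are drawn in the plot of B lineage stages.

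**Figure D2:**
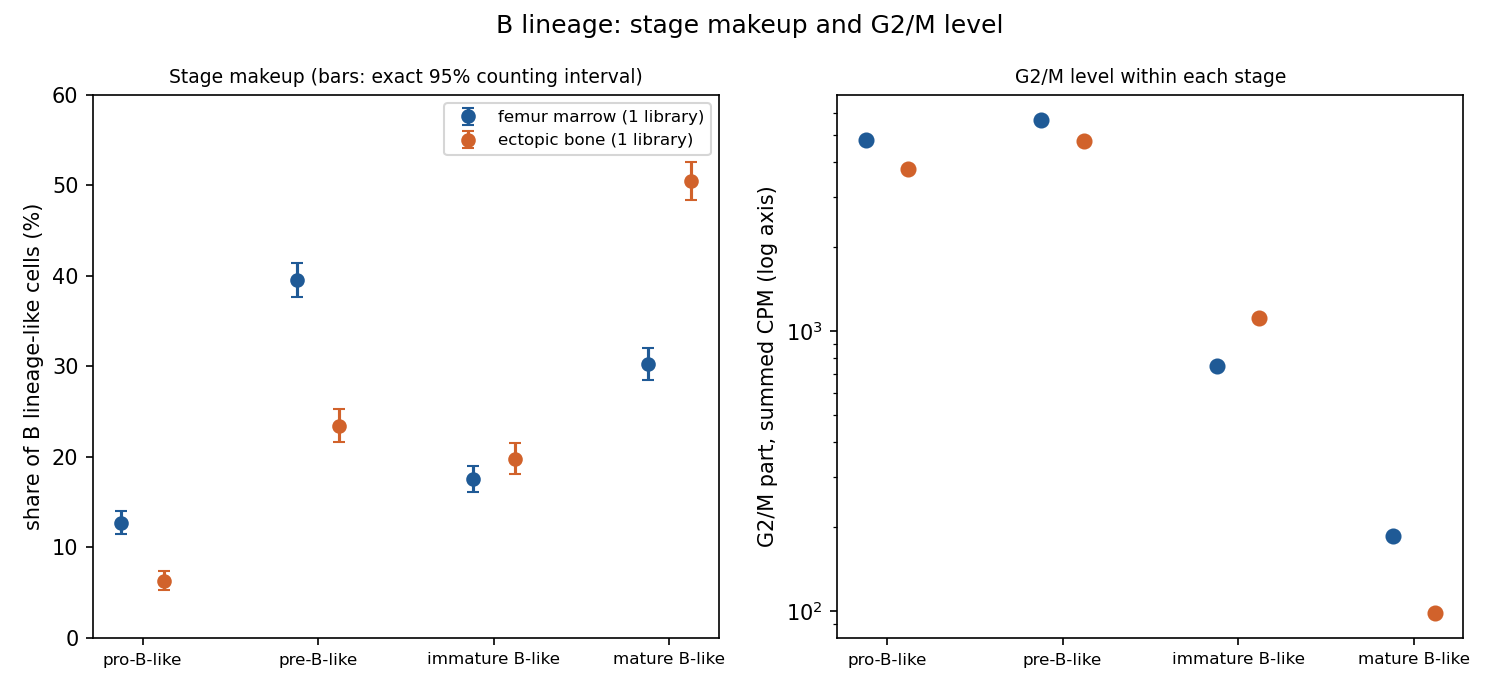
Left, share of B lineage-like cells in each stage with exact 95% counting intervals; right, summed CPM of the 23 G2/M genes within each stage on a log axis, with 1 point for each library. Ectopic bone has fewer pro-B-like and pre-B-like cells (6.28% and 23.4%, against 12.7% and 39.5%) and more mature B-like cells, the stage of the lowest level.

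Within pro-B-like cells (337 femur and 138 ectopic) the G2/M ratio was 0.790 (0.774 to 0.807) and the S ratio 0.886 (0.868 to 0.904). Of 42 measured genes 2 were lower and none higher, against 5.10% lower and 3.87% higher among all genes measured there. These values moved with the clustering: the G2/M ratio was 0.558 at a resolution of 2, 0.591 with at least 1500 UMIs per cell and 0.584 with cycle genes kept among the variable genes, and 23, 24 and 17 genes passed 1.5-fold. The 2 were the kinetochore motor Cenpe, at 144.5 and 91.5 CPM (0.633), and the mitotic kinase Aurkb, at 105.7 and 68.6 CPM (0.649). Mki67 was 569.5 and 476.8 CPM (0.837). Top2a was 760.9 and 557.9 CPM (0.733). Ccnb1 was 144.8 and 114.9 CPM (0.794), whereas Cdc20 was nearly level at 145.3 and 148.2 CPM (1.02, interval 0.912 to 1.14). The 6 helicase genes were level as a sum, at 1135 and 1117 CPM (0.984, interval 0.945 to 1.02). Mcm5 at 156.9 and 169.8 CPM (1.08) and Mcm3 at 179.3 and 188.1 CPM (1.05) were the highest pair of ratios in the class. The other 15 S genes had ratios below 1. Pcna was 544.8 and 474.0 CPM (0.870), Tyms 148.1 and 119.2 CPM (0.805) and Rrm2 249.02 and 211.6 CPM (0.850). Ccne1 was 38.0 and 31.4 CPM (0.826) and Ccne2 51.2 and 43.6 CPM (0.851). Stmn1 was 1116 and 949.6 CPM (0.851) and Hmgb2 3728 and 3149 CPM (0.844).

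Within pre-B-like cells (1049 and 515) the ratios were 0.841 (0.827 to 0.855) for the G2/M part and 0.762 (0.746 to 0.778) for the S part. Of 42 measured genes 1 was lower past 1.5-fold, Ccne1, at 22.8 and 10.7 CPM (0.470, interval 0.333 to 0.652), where 2.90% of all measured genes were lower and 3.30% higher. Its partner gene Ccne2 was 32.1 and 21.9 CPM (0.683). Fbxo5 followed at 156.7 and 104.6 CPM (0.667). Mcm5 was 96.2 and 71.9 CPM (0.747), Pcna 410.7 and 275.9 CPM (0.672), Tyms 57.0 and 42.5 CPM (0.745) and Rrm2 246.5 and 179.0 CPM (0.726). Ube2c and Cdc20 were level: Ube2c was 403.1 and 409.9 CPM (1.02, interval 0.959 to 1.08) and Cdc20 153.8 and 155.7 CPM (1.01). The other 21 G2/M genes had ratios below 1. Mki67 was 697.1 and 576.3 CPM (0.827), Top2a 999.6 and 762.1 CPM (0.762) and Ccnb1 123.6 and 116.7 CPM (0.944). Stmn1 was 1119 and 921.6 CPM (0.824) and Hmgb2 4014 and 3409 CPM (0.849). The class held clusters high and low in these genes although the genes were left out of the clustering: 4 of its 6 clusters had G2/M sums from 4805 to 12322 CPM in femur marrow and from 6295 to 11577 CPM in ectopic bone, and 2 were low. A cluster led by Reln was at 230 CPM in femur marrow and 115 CPM in ectopic bone (0.4999), and a cluster led by Cecr2 and Il2ra at 117 and 101 CPM (0.862). The 4 high clusters had ratios from 0.865 to 1.31. With at least 1500 UMIs per cell the G2/M ratio of pre-B-like cells turned to 1.07.

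The promoters of some genes lowered together in the B lineage are shown for their sequence elements. RefSeq promoter sequences of the build GRCm38.p6 were found for 36 of the 42 genes; the counts are on GRCm39, and the coordinates belong to the former only. In the 250 bases before the start site, 3 elements known from cycle promoters were searched on both strands. They were the E2F element (TTTCCCGC, TTTCGCGC, TTTGCCGC or TTTGGCGC), the CHR element (TTTGAA or TTCGAA), bound by the MuvB complexes, and the CCAAT box, bound by NF-Y. Capitals mark matches, which can overlap. Mcm5 is shown from the S part, and Top2a, Cdc20 and Ccnb1 from the G2/M part. Mcm5 and Cdc20 were inside the 1.5-fold limit in the B lineage, so they are not typical of their parts.
Mcm5, chr8:75109259-75109508, plus strand: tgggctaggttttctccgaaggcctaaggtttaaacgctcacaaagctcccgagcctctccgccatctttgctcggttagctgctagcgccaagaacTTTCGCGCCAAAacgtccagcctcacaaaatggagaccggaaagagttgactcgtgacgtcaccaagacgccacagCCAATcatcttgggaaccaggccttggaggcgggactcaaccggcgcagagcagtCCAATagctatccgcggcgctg
Top2a, chr11:99024190-99024439, minus strand: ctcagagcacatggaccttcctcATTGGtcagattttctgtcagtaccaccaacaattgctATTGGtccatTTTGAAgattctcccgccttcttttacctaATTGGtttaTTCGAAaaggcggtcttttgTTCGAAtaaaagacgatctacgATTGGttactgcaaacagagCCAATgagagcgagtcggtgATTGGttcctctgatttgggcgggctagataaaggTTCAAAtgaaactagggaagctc
Cdc20, chr4:118437344-118437593, minus strand: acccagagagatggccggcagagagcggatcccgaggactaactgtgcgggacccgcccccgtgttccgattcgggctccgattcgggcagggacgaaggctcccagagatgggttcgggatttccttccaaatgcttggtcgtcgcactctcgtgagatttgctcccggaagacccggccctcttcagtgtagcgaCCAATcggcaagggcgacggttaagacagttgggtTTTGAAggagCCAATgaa
Ccnb1, chr13:100786487-100786736, minus strand: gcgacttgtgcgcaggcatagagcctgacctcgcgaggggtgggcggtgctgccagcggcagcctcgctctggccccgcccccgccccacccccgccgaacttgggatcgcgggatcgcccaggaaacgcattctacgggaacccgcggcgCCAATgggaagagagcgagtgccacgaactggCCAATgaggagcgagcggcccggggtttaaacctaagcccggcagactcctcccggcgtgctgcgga
The CCAAT box was present in 12 of 15 S promoters (80%) and 16 of 20 G2/M promoters (80%), against 34.5% of all 27025 promoters. The CHR element was in 9 of 20 G2/M promoters (45%) and 3 of 15 S promoters (20%), against 17.4% of all. Both together stood in 8 of 20 G2/M promoters (40%) and in 6.21% of all. The E2F element was in 3 of 15 S promoters, those of Mcm5, Mcm6 and Mcm7, in 2 of 20 G2/M promoters, and in 1.91% of all. Ccnb1, without a CHR match, had a B lineage ratio of 0.606, and Cdc20 and Top2a, with one, had 0.714 and 0.513. A match is a description of letters and not a binding site.

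In immature B-like cells (465 and 435) the parts went in different directions, and so did the clusters. The G2/M part was 751.5 CPM (721.2 to 782.9) in femur marrow and 1109 CPM (1073 to 1145) in ectopic bone, a ratio of 1.48, and 11 of 23 genes were higher, against 3.48% of all measured genes. The S part was 761.6 and 606.9 CPM (0.797), with 3 of 15 measured genes lower, against 3.39%. Ccnb1 was 10.4 and 24.9 CPM (2.39, interval 1.57 to 3.71), the Polo kinase gene Plk1 7.83 and 18.1 CPM (2.31) and Cdc20 21.8 and 37.9 CPM (1.74). Mki67 was 111.5 and 158.8 CPM (1.42), Top2a 116.1 and 130.7 CPM (1.13) and Hmgb2 572.2 and 638.0 CPM (1.11). On the S side, Mcm6 was 59.99 and 33.5 CPM (0.558) and Mcm7 62.6 and 37.3 CPM (0.596), while Mcm5 was 31.95 and 26.7 CPM (0.835) and Pcna 123.9 and 101.3 CPM (0.818). Tyms was 13.4 and 11.9 CPM (0.887), Rrm2 19.2 and 21.0 CPM (1.09) and Stmn1 147.7 and 120.3 CPM (0.815). The higher G2/M ratio came from 1 of 3 clusters. That cluster, led by Igha and Jchain with 373 and 380 cells, was at 729 and 1268 CPM (1.74). A cluster led by Ppm1e and Cd72, with 67 and 36 cells, was at 1277 and 136 CPM (0.107), and the third, with 25 and 19 cells, was at 133 and 141 CPM (1.06). A few cells carried the G2/M values: the 5 highest cells for each gene held a median of 55.3% of its femur UMIs and 64.1% of its ectopic UMIs. Without the 5 cells of most G2/M UMIs in each library the ratio was 1.31, and as a mean over cells, which weights cells equally, it was 0.965. It was 0.969 with cells thinned to 3000 UMIs. Plasma cell markers were higher in ectopic cells with many G2/M UMIs. The 13 ectopic cells with at least 5 G2/M UMIs per 3000 held 6341 CPM of the 10 plasma markers, all 10 detected, against 806 CPM in the other 422, while in femur marrow the 13 such cells held 259 CPM with 5 of 10 detected, against 505 CPM in the other 452. The part of these cells in the class ratio was not tested.

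Mature B-like cells (803 and 1109) had few UMIs of these genes. The G2/M ratio was 0.528 (0.476 to 0.586), with 8 of 14 measured genes lower, and the S ratio 0.906 (0.846 to 0.970), with 2 of 14 lower, where 2.36% of all measured genes were lower and 2.44% higher. Mki67 was 19.7 and 4.83 CPM (0.245) and Top2a 24.0 and 10.4 CPM (0.432). The centromere gene Cenpf was 10.7 and 2.05 CPM (0.192). Cdc20 was 5.67 and 4.69 CPM (0.826) and the checkpoint kinase gene Bub1b 5.67 and 6.89 CPM (1.21). Pcna was level at 73.3 and 75.0 CPM (1.02), as were Mcm5 at 14.5 and 13.9 CPM (0.958) and Rrm1 at 21.6 and 24.6 CPM (1.14). Ccne1 was 7.71 and 5.57 CPM (0.722) and Ccne2 4.31 and 4.83 CPM (1.12). Stmn1 was 34.7 and 20.9 CPM (0.603) and Hmgb2 263.4 and 192.9 CPM (0.732). The G2/M sums, 186 and 98.3 CPM, stood beside 145 and 122 CPM in mature neutrophil-like cells. Without the 5 cells of most G2/M UMIs in each library the ratio was 0.744, and with no doublets removed it was 0.990.

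Myeloid progenitor-like cells led by Mpo (198 and 73) did not show the difference. Their G2/M ratio was 1.01 (0.985 to 1.04) and their S ratio 1.01 (0.978 to 1.04). All 42 genes were measured and 0 passed 1.5-fold, where 1.84% of all measured genes were higher and 5.97% lower. Member ratios ran from 0.780 for Ccne2, at 41.9 and 32.7 CPM, and 0.798 for the spindle motor Kif11, at 112.3 and 89.6 CPM, to 1.36 for Bub1b, at 51.7 and 70.4 CPM, and 1.38 for Kif20b, at 44.5 and 61.5 CPM. Mki67 was 274.6 and 257.6 CPM (0.938) and Top2a 400.2 and 357.2 CPM (0.893). Ccnb1 was 46.3 and 62.7 CPM (1.35) and Cdc20 72.6 and 77.3 CPM (1.06). Mcm5 was 156.5 and 172.3 CPM (1.10), Pcna 333.2 and 315.3 CPM (0.946), Tyms 106.7 and 117.7 CPM (1.10) and Rrm2 141.4 and 161.1 CPM (1.14). Ccne1 was 17.9 and 15.4 CPM (0.861), Stmn1 713.1 and 804.0 CPM (1.13) and Hmgb2 2487 and 2501 CPM (1.01). Its 4 clusters had G2/M ratios from 0.870 to 1.26. Fcnb-led neutrophil precursors and monocyte-like cells also had 0 of 42 genes past 1.5-fold, against 2.32% higher and 2.33% lower and against 2.13% higher and 2.89% lower of all genes measured there.

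Stem and early progenitor-like cells (82 and 16) had too few ectopic cells for a firm value. The S part was 1296 CPM (1248 to 1346) in femur marrow and 2442 CPM (2315 to 2575) in ectopic bone, a ratio of 1.88, with 10 of 15 measured genes higher and none lower, where 9.55% of all measured genes were higher and 16.2% lower. The G2/M part was 2127 and 1605 CPM (0.755), with 5 of 23 lower and 1 higher. S UMIs per G2/M UMI were thus 0.609 in femur marrow and 1.52 in ectopic bone. The class had 2 clusters. One led by Mecom, with 60 and 10 cells, had a G2/M ratio of 1.32 and an S ratio of 2.37, while the other, led by Flt3, with 22 and 6 cells, had 0.223 and 1.12, so the G2/M directions opposed each other. Rrm2 was 16.4 and 68.9 CPM (4.20) and Uhrf1, which helps to copy DNA methylation, 49.2 and 157.2 CPM (3.19). Mcm5 was 53.6 and 157.2 CPM (2.93), Pcna 153.5 and 347.9 CPM (2.27) and Tyms 41.99 and 100.7 CPM (2.40). On the mitotic side the Aurora kinase gene Aurka was 38.1 and 14.1 CPM (0.371) and Cdc20 66.1 and 33.6 CPM (0.508). Mki67 was 200.3 and 153.6 CPM (0.767), Top2a 328.7 and 229.6 CPM (0.699) and Ccnb1 56.0 and 40.6 CPM (0.726). Stmn1 was 808.8 and 1277 CPM (1.58) and Hmgb2 1162 and 1180 CPM (1.02). Without the 5 cells of most UMIs of a part in each library the S ratio was 1.08 and the G2/M ratio 0.328, and 8 of the 9 alternatives run gave a G2/M ratio outside its counting interval, 5 of the 9 above 1.

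**Figure D3:**
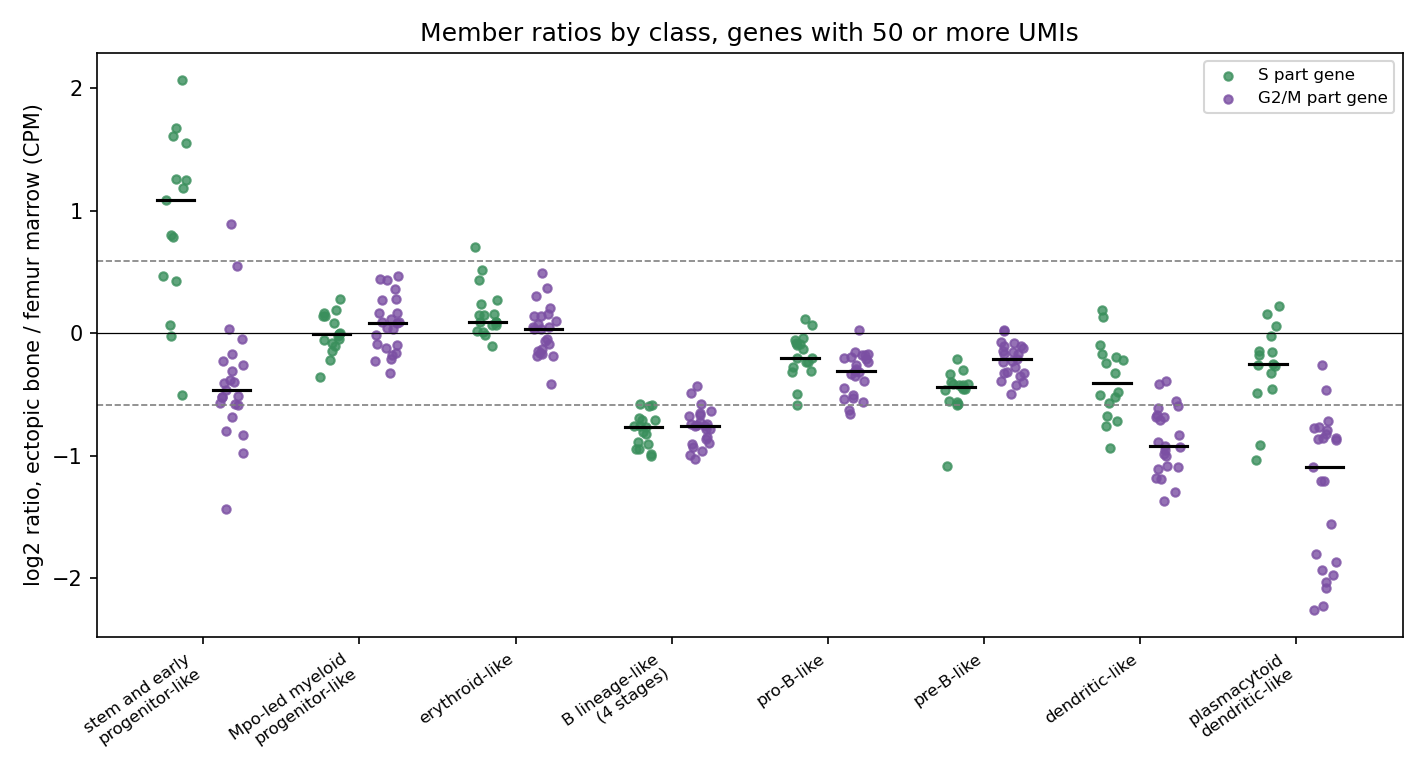
Log2 ratio of CPM, ectopic bone over femur marrow, for each gene with 50 or more UMIs, by class; green points are S genes, purple points G2/M genes, black bars medians and dashed lines 1.5-fold. B lineage-like points lie between -1.02 and -0.43, Mpo-led and erythroid-like points scatter around 0, and in dendritic-like cells the G2/M genes lie below the S genes (medians -0.92 and -0.40).

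Erythroid-like cells (94 and 53) were high in both parts in each library. The G2/M ratio was 1.10 (1.08 to 1.12) and the S ratio 1.09 (1.07 to 1.11). Of 42 measured genes 1 passed 1.5-fold, the DNA glycosylase gene Neil3, at 115.7 and 188.0 CPM (1.63, interval 1.43 to 1.85), where 5.60% of all measured genes were higher and 6.74% lower. Fbxo5 was 136.6 and 195.5 CPM (1.43). Mki67 was 1075 and 1509 CPM (1.40), while Top2a was 930.9 and 951.3 CPM (1.02). The lowest ratios were those of Plk1, at 119.6 and 89.9 CPM (0.752), and Cdc20, at 152.6 and 134.0 CPM (0.878). Ccnb1 was 171.6 and 161.6 CPM (0.942). Mcm5 was 272.7 and 291.1 CPM (1.07), Pcna 661.1 and 705.2 CPM (1.07), Tyms 208.3 and 231.3 CPM (1.11) and Rrm2 391.1 and 409.9 CPM (1.05). Ccne1, at 158.0 and 168.2 CPM (1.06), and Ccne2, at 87.5 and 105.6 CPM (1.21), were higher here than in any other described class. Stmn1 was 700.5 and 717.1 CPM (1.02) and Hmgb2 2823 and 3170 CPM (1.12). The class has high RNA content, with medians of 49684.5 and 47856 UMIs per cell, and was 0.964% of femur and 0.825% of ectopic cells, yet it held 10.5% and 11.7% of all G2/M UMIs of its library. Of the erythroid-like cells seen before doublets were left out, 33.0% had been scored as doublets.

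Summed over the class, dendritic-like cells (119 and 153) were lower in ectopic bone, mostly in the G2/M part, but their clusters differed in direction. The G2/M part was 3226 CPM (3146 to 3307) in femur marrow and 1748 CPM (1700 to 1796) in ectopic bone, a ratio of 0.542, and 20 of 23 genes were lower, against 6.75% of all measured genes. The S part was 1588 and 1184 CPM (0.745), with 4 of 16 measured genes lower; none of either part was higher, against 5.28%. Ube2c was 285.4 and 110.3 CPM (0.386) and Cdc20 72.3 and 29.4 CPM (0.406), the lowest pair. Ccnb1 was 70.2 and 30.7 CPM (0.438), Top2a 457.0 and 236.6 CPM (0.518) and Mki67 331.2 and 202.4 CPM (0.611). Genes of replication were nearer to level. Tyms was 40.0 and 45.7 CPM (1.14), Mcm3 75.9 and 83.3 CPM (1.10), Mcm5 67.6 and 60.1 CPM (0.889), Rrm2 56.2 and 49.2 CPM (0.875), Pcna 207.4 and 175.5 CPM (0.846) and Ccne2 13.5 and 11.6 CPM (0.859). Stmn1 was 585.4 and 354.4 CPM (0.605) and Hmgb2 1631 and 1236 CPM (0.758).

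The dendritic-like class was made of 3 clusters whose shares and levels both differed. A cluster led by Gria3, Ctnnd2, Upb1 and Runx2 had Flt3 and Irf8 further down its 10 leading genes. It was 21.0% of femur (14.1% to 29.4%) and 11.1% of ectopic cells (6.61% to 17.2%), with G2/M sums of 5129 and 4824 CPM (0.941). A cluster with Clec9a among its leading genes was 51.3% and 49.0% of cells, with 3673 and 1702 CPM (0.464). A cluster led by Cd209a, Mrc1 and MHC class II genes was 27.7% and 39.9%, with 117.8 and 350.3 CPM (2.97, interval 2.22 to 4.05). In the same order, the S ratios of the 3 clusters were 1.23 (1.13 to 1.33), 0.682 (0.639 to 0.729) and 1.38 (1.09 to 1.76). At the femur makeup the ectopic G2/M level was 2211 CPM and its ratio 0.685 in place of 0.542, and the S ratio was 0.916 in place of 0.745. The S ratio at the femur makeup was thus near 1, while the G2/M ratio lay close to the 1.5-fold limit. The class depends on the clustering: with the cycle genes kept among the variable genes it held 51 and 84 cells and its G2/M ratio was 1.87.

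Plasmacytoid dendritic-like cells (306 and 87) showed 1097 and 521.7 CPM of the G2/M part (0.476) and 879.0 and 744.1 CPM of the S part (0.847). Lower genes were 21 of 23 in the G2/M part and 2 of 15 measured in the S part, against 5.65% of all measured genes lower and 3.64% higher. Aurka was 16.6 and 3.46 CPM (0.208) and Cenpe 32.5 and 6.93 CPM (0.213). Mki67 was 101.7 and 59.6 CPM (0.586), Top2a 177.8 and 97.0 CPM (0.545), Ccnb1 20.8 and 9.01 CPM (0.432) and Cdc20 25.3 and 6.93 CPM (0.274). Rrm2 was 23.8 and 27.7 CPM (1.16), Mcm5 27.3 and 30.5 CPM (1.12), Tyms 23.3 and 24.3 CPM (1.04) and Pcna 137.6 and 135.8 CPM (0.987). Stmn1 was 341.3 and 216.2 CPM (0.633) and Hmgb2 693.9 and 431.0 CPM (0.621). The ectopic values rested on few cells, since only 4 of 87 passed the cut on G2/M UMIs used below. The direction turned with the clustering, with a G2/M ratio of 1.06 at a resolution of 2 and 1.09 with at least 1500 UMIs per cell. The S ratio turned as well, to 1.27, to 1.14 and, with cycle genes kept among the variable genes, to 1.10. Without the 5 cells of most UMIs of a part in each library the G2/M ratio was 0.105 and the S ratio 0.435.

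CAR-like cells (160 and 127) had hardly any G2/M UMIs, 132 in femur marrow and 150 in ectopic bone over all 23 genes, and no G2/M gene reached 50. The ratio was 1.27 (0.999 to 1.62). Of the 7 measured genes, Stmn1 was higher, at 15.3 and 28.3 CPM (1.85, interval 1.14 to 3.04), and the helicase gene Mcm4 was lower, at 21.6 and 12.4 CPM (0.573), where 11.4% of all measured genes were higher and 10.6% lower. Pcna was 47.9 and 34.8 CPM (0.725), Mcm7 16.3 and 21.2 CPM (1.30) and Hmgb2 94.8 and 96.6 CPM (1.02). Mki67 gave 11 and 13 UMIs and Top2a 15 and 14. Ccnb1 and Bub1 gave 0 and 2 UMIs and Aurka 2 and 0. After each cell was thinned to 3000 UMIs, at least 1 Mki67 UMI was found in 1.29% and 2.83% of CAR-like cells. Mature neutrophil-like cells gave 4.05% and 3.35%, so the CAR-like Mki67 shares did not exceed those of a class that does not divide. The ectopic CAR-like share had a wide interval, 0.588% to 8.05%. For Top2a the shares were 2.58% and 1.89% in CAR-like cells and 3.27% and 1.04% in mature neutrophil-like cells. The ectopic CAR-like Top2a share, with an interval of 0.229% to 6.65%, was thus the higher of the ectopic pair. All 15 CAR markers were above other cells in each library. Leaving out a cluster of low UMIs led by Cxcl9, with 5 femur and 27 ectopic cells, gave a G2/M ratio of 1.26. Of the CAR-like cells seen before doublets were left out, 34.7% had been scored as doublets. With these kept, the G2/M ratio turned to 0.286, that of Stmn1 turned to -1.65 on the log2 scale, and 24 genes passed 1.5-fold.

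Counting cells in place of UMIs gave a related picture. Each cell was thinned to 3000 UMIs, and a cell passed the cut with 5 or more UMIs of the G2/M part. In mature neutrophil-like cells 0.277% of femur and 0.115% of ectopic cells passed. In the B lineage 19.4% of 2501 femur cells (17.8% to 21.0%) and 8.40% of 2096 ectopic cells (7.24% to 9.67%) passed, with 153 and 101 shallower cells left out. Their median G2/M count was 27 and 26.5 UMIs of 3000, so cells past the cut held like amounts in each library. Unthinned, with the same cut, the shares were 21.0% and 9.56%. In pro-B-like cells 48.9% (43.4% to 54.5%) and 39.1% (30.9% to 47.8%) passed, and in pre-B-like cells 31.7% (28.8% to 34.7%) and 21.8% (18.2% to 25.8%), with medians of 33 and 32 UMIs. In mature B-like cells 3 of 758 and 1 of 1043 passed. The intervals of the pro-B-like shares overlapped, while those of the pre-B-like shares did not. They also overlapped in Mpo-led cells, 58.4% (51.2% to 65.3%) and 50.7% (38.6% to 62.8%). The same held in erythroid-like cells, 91.6% (83.4% to 96.5%) and 86.8% (74.7% to 94.5%). In the 7 erythroid-like ectopic cells with fewer G2/M UMIs, the erythroid markers summed to 494 CPM, against 22003 CPM in the other 46. The monocyte markers summed to 3005 CPM in these 7 cells, against 175 CPM in the other 46. The 15 femur cells of this kind had a median of 1750 UMIs. Their erythroid markers summed to 59860 CPM, against 15816 CPM in the other 79. Their neutrophil markers summed to more, 89521 CPM, against 5166 CPM in the other 79. As shallower cells, 11 femur and 0 ectopic erythroid-like cells were left out, so the 2 erythroid-like shares were not taken over like cells. Dendritic-like cells gave 28.9% (20.8% to 38.2%) and 16.6% (10.9% to 23.6%), and plasmacytoid ones 7.62% (4.89% to 11.2%) and 4.598% (1.27% to 11.4%). Stem and early progenitor-like cells gave 17.1% (9.66% to 27.0%) and 31.2% (11.0% to 58.7%) of 82 and 16. In each of these classes too the intervals overlapped. Among CAR-like cells 0 of 155 and 0 of 106 passed, with exact upper bounds of 2.35% and 3.42%, and 5 and 21 shallower cells were left out. Unthinned, 1.25% and 4.72% of CAR-like cells passed the same cut, against 1.35% and 1.13% of mature neutrophil-like cells. Unthinned cells are not matched for depth. Median UMIs were 11505 and 13985 in CAR-like cells and 6741 and 8107.5 in mature neutrophil-like cells.

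**Figure D4:**
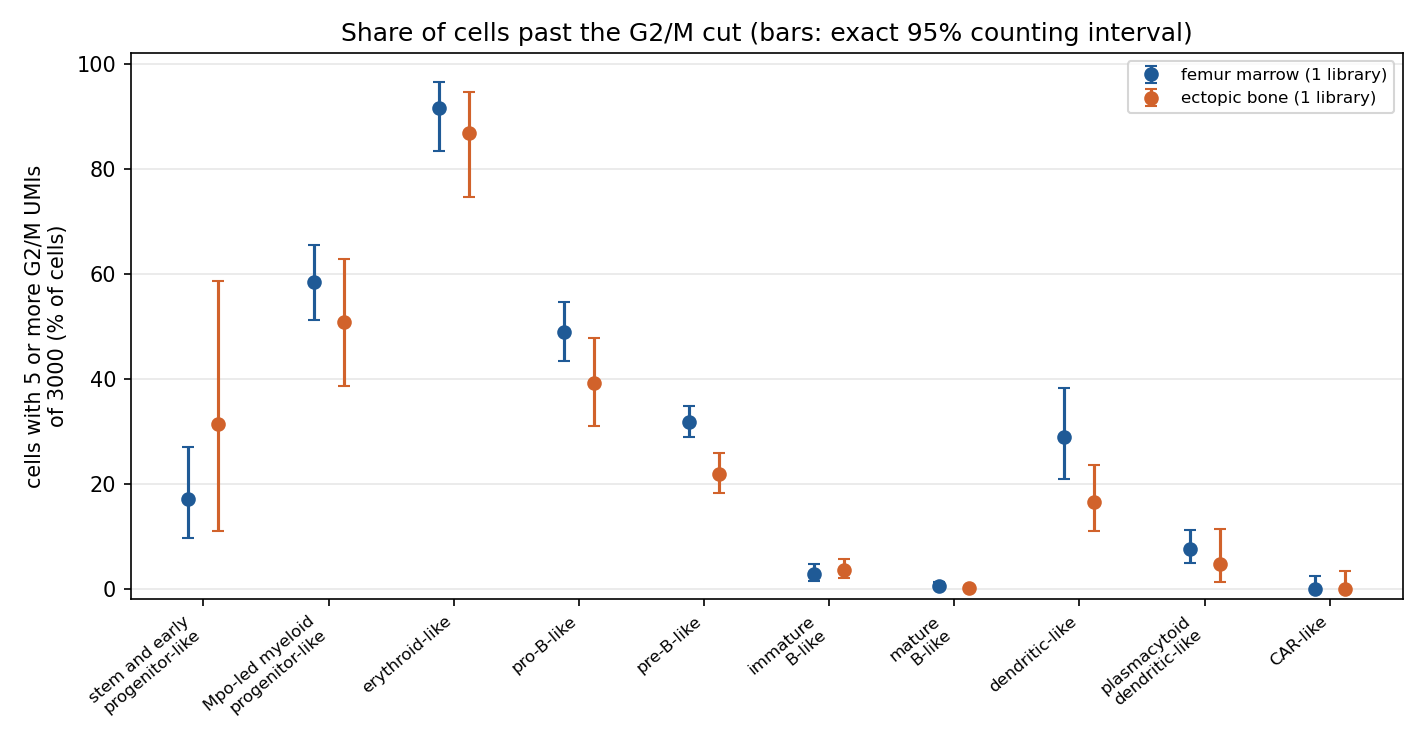
Percent of cells with 5 or more G2/M UMIs after thinning to 3000 UMIs, by class, with exact 95% counting intervals and 1 point for each library. Pre-B-like shares are 31.7% and 21.8%, the only pair drawn whose intervals do not overlap, and CAR-like cells are at 0 in both libraries.

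Cells past a cut of 5 on either part were also sorted by which part they passed. In the B lineage 69.7% of 627 such femur cells and 65.1% of 229 ectopic cells passed both, 22.8% and 23.1% only the S part, and 7.50% and 11.8% only the G2/M part. Nearly all erythroid-like cells past a cut passed both, 96.2% and 97.8%. In Mpo-led cells, with 169 and 66 cells past a cut, both were passed by 51.5% (43.7% to 59.2%) and 33.3% (22.2% to 46.0%). The S part alone was passed by 32.0% (25.0% to 39.6%) and 45.5% (33.1% to 58.2%) of them. The intervals of each pair overlapped. In neutrophil-like cells, which include late precursors, the G2/M part alone was passed by 75.2% and 68.3%.

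Other cycle genes were taken from 5 lists and are read against the shares over all measured genes of each class. Of 40 further mitosis genes in the B lineage 34 were lower and none higher, and of 35 further replication genes 17 were lower and none higher, where 7.81% of all genes were lower. Spc25, a kinetochore gene, was 60.6 and 27.7 CPM (0.457), and Cdc45, a helicase cofactor, 43.9 and 21.9 CPM (0.499). Among 15 brakes of the cycle 3 of 13 measured were lower, with the inhibitor gene Cdkn1a at 21.5 and 11.0 CPM (0.510) and Btg1 level at 0.991. Of the E2F, MYB-MuvB and FOXM1 factors 6 of 16 measured were lower, with Foxm1 at 33.4 and 15.8 CPM (0.474). In pro-B-like cells the cyclin D2 gene Ccnd2 was 98.5 and 245 CPM (2.49) and Myc 19.9 and 43.9 CPM (2.21), the 2 genes of these lists that were higher there. In Mpo-led cells 0 of 35 replication genes passed 1.5-fold and 3 of 40 mitosis genes did, 1 higher and 2 lower, near the 1.84% and 5.97% of all genes. Of 12 brakes measured in these cells 3 were lower and none higher. In the same cells the cyclin D1 gene Ccnd1 was 12.0 and 34.6 CPM (2.88) and Cdkn1a 20.6 and 8.84 CPM (0.429). Stem and early progenitor-like cells had 20 of 32 measured replication genes higher and 1 lower, against 9.55% and 16.2% of all genes. Of 37 measured mitosis genes there 4 were higher and 11 lower. Plasmacytoid dendritic-like cells had 25 of 35 measured mitosis genes and 2 of 32 replication genes lower. None was higher, against 5.65% of all genes lower and 3.64% higher. In erythroid-like cells the G1 kinase gene Cdk6 was 300 and 154 CPM (0.515) and Ccnd2 18.5 and 6.19 CPM (0.335). Dendritic-like cells had 28 of 40 mitosis genes and 8 of 34 measured replication genes lower and none higher, against 6.75% and 5.28% of all genes, with Kif2c at 39.5 and 12.97 CPM (0.328). In CAR-like cells 12 of 15 brakes were measured, 5 lower and 1 higher, against 10.6% and 11.4% of all genes, with Cdkn1a at 121 and 25.9 CPM (0.214) and Btg2 at 158 and 376 CPM (2.39).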

How the data were processed

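The authors deposited raw UMI counts per gene and barcode for each library. Per the file headers they come from Cell Ranger 7.0.1, and the submitters' processing notes name GRCm39; the annotation is not given in the sources used here. Cells were kept with at least 500 UMIs, 300 genes and at most 10% mitochondrial UMIs, and 910 femur and 369 ectopic cells with the highest simulated-doublet scores (0.8% per 1000 cells) were left out. The doublet step took out 12.0% of femur cells high in G2/M UMIs and 7.90% of the others. In the ectopic library it took out 9.01% and 4.97%. Levels and shares of the main setting were taken after this step. Both libraries were clustered together (scanpy 1.11.5, Leiden, resolution 1, 2000 variable genes, 30 components, 15 neighbours) without cycle and histone genes. Clusters were named by the markers among their 10 genes of highest fold, and mixed ones were split again; the doublet weighting, naming and splitting were settled after the clusters were seen. UMIs were summed per class and library and scaled to CPM. Ratio intervals are exact conditional binomial, sums exact Poisson and shares Clopper-Pearson at 95%, and cover counting error only. The calculation was tested on simulated counts. TMM factors (edgeR 4.0.16) were an alternative. In each class the text names Mki67, Top2a, Ccnb1, Cdc20, Mcm5, Pcna, Tyms, Rrm2, Ccne1, Ccne2, Stmn1 and Hmgb2 where measured, the 2 highest and 2 lowest measured ratios, and for other lists up to 2 at each end; promoters are shown for 4 of the named genes. The members and lists were chosen with earlier results of these data known.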

Additional observations from a re-analysis of the deposited data

How the results depend on the processing

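The G2/M and S ratios of the B lineage kept their direction under all 10 alternatives run for each, with log2 values from -1.14 to -0.77 and from -1.05 to -0.75. The G2/M direction turned under at least 1 alternative in stem and early progenitor (early progenitor below), Mpo-led, pre-B, immature B, erythroid, dendritic, plasmacytoid and CAR cells, and the S direction in Mpo-led, erythroid and plasmacytoid cells. Mpo-led and erythroid ratios stayed within 1.5-fold under all 9 alternatives run for each. The other G2/M directions held, with log2 values from -0.84 to -0.30 in pro-B and from -0.92 to -0.015 in mature B cells. At a resolution of 0.5 no dendritic class was found. With 1 library per tissue no replicate could be left out. No paired analysis was possible because each tissue has 1 library. Depth limits the CAR values, where no G2/M gene reached 50 UMIs. Leaving out 5 cells, or a cluster of low UMIs, was chosen after seeing the data. The cause of the differences below was not tested.

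Part ratios and share differences outside the counting interval, counts over 1.5 times apart, and single-gene ratios past 1.5-fold that changed sign follow by setting. All classes are "-like". With no doublets removed, the G2/M log2 ratio was 0.19 in early progenitor, -0.060 in Mpo-led, -0.77 in B lineage, -0.21 in pre-B, 0.39 in immature B, -0.015 in mature B, -0.018 in erythroid, -0.72 in dendritic and -1.81 in CAR cells. The S value was 0.56 in early progenitor, -0.75 in B lineage, -0.31 in pre-B, -0.55 in immature B, 0.027 in erythroid, -0.043 in plasmacytoid and -1.13 in CAR cells. Genes past the fold numbered 9 in early progenitor, 1 in pro-B, 5 in mature B, 0 in erythroid and 24 in CAR cells. The share past the cut differed by 6.68 points in erythroid cells. Single-gene log2 ratios turned to 0.17 for Top2a in mature B cells and -1.65 for Stmn1 in CAR cells. With at least 1500 UMIs per cell, the G2/M log2 ratio was 0.18 in early progenitor, -0.10 in Mpo-led, -0.98 in B lineage, -0.76 in pro-B, 0.091 in pre-B, -0.54 in mature B, -1.40 in dendritic and 0.13 in plasmacytoid cells. For the S part it was 0.77 in early progenitor, -0.98 in B lineage, -0.39 in pro-B, -1.27 in dendritic and 0.18 in plasmacytoid cells. Genes past the fold numbered 11 in early progenitor, 24 in pro-B, 5 in pre-B and 5 in plasmacytoid cells. The share past the cut differed by -4.06 points in B lineage and -1.38 in pre-B cells. Single-gene log2 ratios turned to 0.15 for Mki67, 0.12 for Top2a, 0.35 for Ccnb1 and 0.14 for Hmgb2 in plasmacytoid cells. At a resolution of 2, the G2/M log2 ratio was 0.010 in early progenitor, 0.076 in Mpo-led, -1.04 in B lineage, -0.84 in pro-B, -0.11 in pre-B, 0.39 in immature B, -0.53 in mature B, 0.17 in erythroid, -1.12 in dendritic and 0.084 in plasmacytoid cells. S genes gave 0.48 in early progenitor, -0.94 in B lineage, -0.39 in pro-B, -0.30 in pre-B, -0.59 in dendritic and 0.34 in plasmacytoid cells. Genes past the fold numbered 7 in early progenitor, 1 in Mpo-led, 23 in pro-B, 3 in pre-B and 5 in plasmacytoid cells. The share past the cut differed by -4.23 points in B lineage, -2.19 in pre-B and 4.07 in plasmacytoid cells. Single-gene log2 ratios turned to 0.15 for Mki67, 0.11 for Top2a, 0.14 for Ccnb1, 0.080 for Stmn1 and 0.10 for Hmgb2 in plasmacytoid cells. At a resolution of 0.5, the G2/M log2 ratio was 0.41 in early progenitor, -0.30 in pro-B and -0.42 in plasmacytoid cells. The S value was 0.74 in early progenitor, -0.22 in pro-B, -0.32 in pre-B and -0.054 in plasmacytoid cells. Genes past the fold numbered 0 in pro-B and 8 in plasmacytoid cells. With the cycle genes kept among the variable genes, the G2/M log2 ratio was 0.32 in early progenitor, -0.78 in pro-B, -0.17 in pre-B, 0.67 in immature B, -0.52 in mature B, 0.90 in dendritic and -0.26 in plasmacytoid cells. For the S part it was 0.74 in early progenitor, 0.070 in Mpo-led, -0.25 in pro-B, -0.29 in pre-B, -0.67 in dendritic and 0.14 in plasmacytoid cells. Genes past the fold numbered 17 in pro-B, 5 in dendritic and 9 in plasmacytoid cells. The share past the cut differed by -0.308 points in dendritic cells. Single-gene log2 ratios turned to 0.87 for Mki67, 1.90 for Ccnb1 and 3.36 for Cdc20 in dendritic cells. With CPM averaged over single cells, the G2/M log2 ratio was -0.0016 in early progenitor, -1.13 in B lineage, -0.45 in pro-B, -0.46 in pre-B, -0.052 in immature B, -0.69 in mature B, 0.17 in erythroid, -1.04 in dendritic and -1.23 in plasmacytoid cells. S genes gave 1.01 in early progenitor, -0.999 in B lineage, -0.26 in pro-B, -0.59 in pre-B and 0.17 in erythroid cells. With cells thinned to 3000 UMIs, the G2/M log2 ratio was -0.20 in early progenitor, -0.14 in Mpo-led, -1.14 in B lineage, -0.43 in pro-B, -0.48 in pre-B, -0.045 in immature B, -0.73 in mature B, -0.0090 in erythroid and 0.73 in CAR cells. The S value was -0.072 in Mpo-led, -1.05 in B lineage, -0.30 in pro-B, -0.65 in pre-B, -0.058 in erythroid, -0.40 in plasmacytoid and -0.56 in CAR cells. Without the 5 cells of most UMIs of the part in each library, the G2/M log2 ratio was -1.61 in early progenitor, -0.17 in Mpo-led, -0.86 in B lineage, -0.48 in pro-B, -0.32 in pre-B, 0.39 in immature B, -0.43 in mature B, -1.08 in dendritic and -3.25 in plasmacytoid cells. For the S part it was 0.11 in early progenitor, -0.85 in B lineage, -0.23 in pro-B, -0.48 in pre-B, -0.50 in immature B, -0.56 in dendritic and -1.20 in plasmacytoid cells. With TMM factors, the G2/M log2 ratio was 0.063 in Mpo-led and -0.30 in pre-B cells. S genes gave 0.052 in Mpo-led and -0.44 in pre-B cells. Genes past the fold numbered 5 in pre-B cells. At 20 UMIs per gene, genes past the fold numbered 18 in mature B and 4 in CAR cells. At a fold of 2, genes past the fold numbered 9 in early progenitor, 1 in B lineage, 0 in pro-B, 6 in immature B, 7 in mature B, 0 in erythroid, 8 in dendritic, 13 in plasmacytoid and 0 in CAR cells. At a cut of 10 UMIs, the share past the cut differed by -9.6 points in early progenitor cells.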
